A study of Mus musculus with 4 samples.

Results

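The expression of 9 genes of glucose handling was described in 4 liver RNA libraries from mice. They were the hexokinase genes Hk1, Hk2 and Hk3, the glycolytic genes Pfkfb3 and Pklr, the hepatocyte glucose transporter gene Slc2a2 and the glucose-producing genes G6pc, Pck1 and Fbp1. These 9 symbols were taken from the 24346 listed for each library, and they were chosen with their difference between the diets already known, so their values are given as a description and without a test. All 4 libraries came from male wild-type C57BL/6 mice 8 weeks old at the start of feeding, which ate a NASH diet, rich in fat, cholesterol and sucrose with bile salt, for 3 weeks. The control group (n = 2) received this diet alone, and the 7KC group (n = 2) received it with 7-ketocholesterol (7KC), an oxidized form of cholesterol, so a normal diet was not part of the comparison. The measurement was bulk RNA sequencing of liver, and each value is in FPKM, a gene's fragments divided by its exon length and by the mapped fragments of the library.

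Hexokinases trap glucose in the cell by phosphorylating it. Most cells, leukocytes among them, use the high-affinity isoforms encoded by Hk1, Hk2 and Hk3. Further down the pathway, hepatocytes use liver pyruvate kinase (Pklr) and most other cells use pyruvate kinase M (Pkm). Hepatocytes can also run the pathway backward: Pck1 and Fbp1 encode enzymes of gluconeogenesis, G6pc encodes the catalytic subunit of glucose 6-phosphatase that frees glucose, and Slc2a2 encodes GLUT2, through which glucose crosses the cell membrane.

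The promoters of 4 of the genes are shown because these genes had the 2 largest differences in either direction, so that a reader can see which regulatory letters lie at their starts. RefSeq start sites on GRCm38.p6 gave 12 promoters for the 9 genes, each running from 250 bases before to 50 bases after the start, and 3 genes had 2 of them. Both strands were searched for the E-box CACGTG, the half-box of the carbohydrate response element CACGGG, the core of the cAMP response element TGACGT, the hypoxia-inducible factor core ACGTG, the ETS box AGGAAGT, the FOXO box GTAAACA and the HNF1 half-site GTTAAT. Capitals mark the matches on either strand.
Hk3 (chr13:55021336-55021635, minus strand): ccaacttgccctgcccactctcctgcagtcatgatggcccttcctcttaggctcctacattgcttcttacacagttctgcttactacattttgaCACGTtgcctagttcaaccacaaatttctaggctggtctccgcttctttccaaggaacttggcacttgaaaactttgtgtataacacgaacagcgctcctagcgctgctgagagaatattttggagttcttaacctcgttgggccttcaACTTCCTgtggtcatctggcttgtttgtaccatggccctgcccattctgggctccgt
Hk2 (chr6:82774405-82774704, minus strand): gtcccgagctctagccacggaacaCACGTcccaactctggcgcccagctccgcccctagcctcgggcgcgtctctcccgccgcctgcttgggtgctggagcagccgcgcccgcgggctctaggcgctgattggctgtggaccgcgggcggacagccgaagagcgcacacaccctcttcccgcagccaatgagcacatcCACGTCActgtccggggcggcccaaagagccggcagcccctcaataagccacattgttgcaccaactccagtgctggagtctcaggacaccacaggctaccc
Pklr, the downstream start (chr3:89136373-89136672, plus strand): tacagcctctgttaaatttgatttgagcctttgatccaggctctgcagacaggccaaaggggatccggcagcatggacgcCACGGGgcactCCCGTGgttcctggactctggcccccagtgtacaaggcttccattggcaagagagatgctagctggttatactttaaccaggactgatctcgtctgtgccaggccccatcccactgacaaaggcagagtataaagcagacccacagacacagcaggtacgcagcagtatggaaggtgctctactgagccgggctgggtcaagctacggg
G6pc (chr11:101367466-101367765, plus strand): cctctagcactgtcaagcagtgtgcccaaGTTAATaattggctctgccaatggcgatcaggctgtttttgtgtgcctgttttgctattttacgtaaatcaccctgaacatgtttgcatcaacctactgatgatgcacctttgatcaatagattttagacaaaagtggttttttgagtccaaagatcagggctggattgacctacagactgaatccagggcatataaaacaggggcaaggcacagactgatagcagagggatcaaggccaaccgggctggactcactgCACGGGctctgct

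The Hk3 promoter held the ETS box on the reverse strand 7 bases before the start and the hypoxia-inducible factor core at 156 bases. The Hk2 promoter held the latter core at 226 and at 52 bases before the start, the second of these overlapping the core of the cAMP response element at 51 bases. At the downstream Pklr start, the carbohydrate response half-box stood at 170 and, on the other strand, at 159 bases before the start, with 5 bases between the copies. The G6pc promoter held the HNF1 half-site 221 bases before the start and the carbohydrate response half-box 37 bases after it.

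Across the 9 genes, the hypoxia-inducible factor core was found in 4 (Hk1, Hk2, Hk3 and Pfkfb3), against 19.6% of the 32851 RefSeq promoters of this length. The carbohydrate response half-box was found in 3 (Pfkfb3, Pklr and G6pc; 10.1% of promoters) and the core of the cAMP response element in 3 (Hk2, Pfkfb3 and Pck1; 7.51%). The ETS box was found in 2 (Hk3 and Fbp1; 9.35%), the HNF1 half-site in 2 (G6pc and Pck1; 7.1%), the E-box in 1 (Pfkfb3; 7.15%) and the FOXO box in 0 (3.65%). Some matches overlap, since every E-box contains the letters of the hypoxia-inducible factor core. The shares are per promoter, while a gene with 2 promoters had 2 chances of a match. Counted per promoter, the hypoxia-inducible factor core was in 5 of the 12, with the Hk1 match in its second promoter alone, and each of the other motifs was in as many promoters as genes. A match of letters is a description of the sequence and not a measured binding site.

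The libraries held about 13700000 to 17100000 mapped reads, estimated from the spacing of small FPKM values, and between 10967 and 11415 genes reached 1 FPKM. Over all tested genes the log2 values correlated at 0.980 between the control libraries, at 0.983 between the 7KC libraries and at 0.958 to 0.979 across groups. Of the 12299 genes that averaged 0.5 FPKM or more, limma called 59 higher (0.480%) and 3 lower (0.0244%) with 7KC at an adjusted p under 0.05, while 1477 (12.0%) were higher and 715 (5.81%) lower at an unadjusted p under 0.05. Defining hepatocyte genes were abundant in every library, with albumin (Alb) at 41547 and 25202 FPKM in the control and 26969 and 18988 FPKM in the 7KC libraries. All 9 genes passed the filter on low values.

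The 3 hexokinase genes lay higher in both 7KC libraries than in either control library, and Pklr, Slc2a2 and G6pc lay lower in both. Pfkfb3, Pck1 and Fbp1 overlapped between the groups. Thus 3 of 9 genes were above without overlap, beside 25.1% of all tested genes, and 3 of 9 were below, beside 27.4%. With a difference of means of at least 1.5-fold as well, the counts were 3 above and 2 below, against 11.9% and 2.37% of all tested genes. These shares set the scale only, because the genes were picked on this contrast. Differences are given on the scale of log2(FPKM + 0.5), where the median over all tested genes was -0.03. The median was 1.17 over the 4 genes assigned to leukocytes or other non-hepatocyte cells (Hk1, Hk2, Hk3 and Pfkfb3) and -0.46 over the 5 hepatocyte genes.

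**Figure D1:**
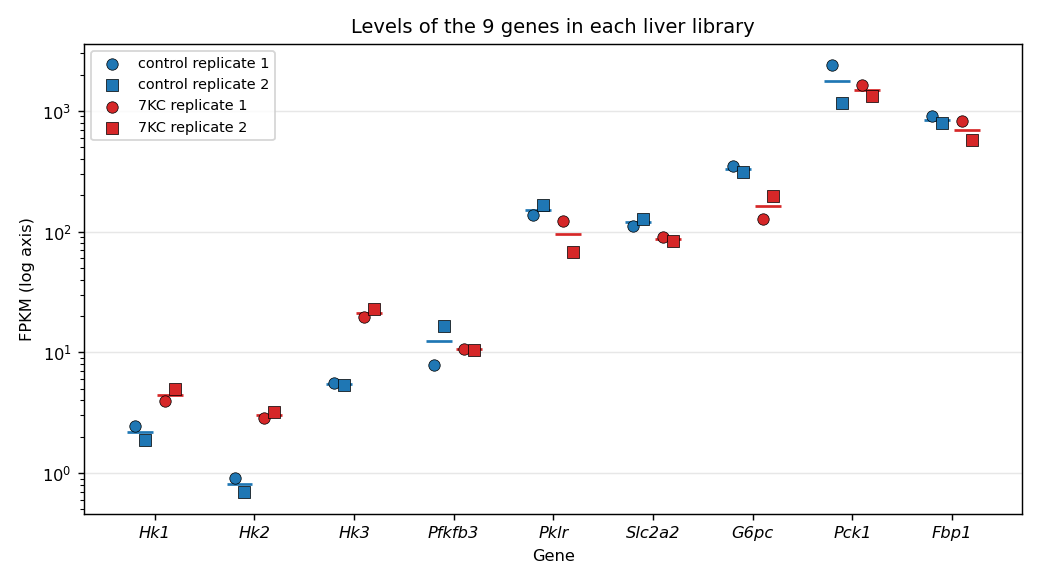
FPKM (log axis) of the 9 genes in the control (blue) and 7KC (red) libraries; circles are replicate 1, squares replicate 2 and short lines the group means. The 3 hexokinase genes are higher in both 7KC libraries, Pklr, Slc2a2 and G6pc are lower in both, and Pfkfb3, Pck1 and Fbp1 overlap.

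Hk3 encodes the hexokinase best known from myeloid cells and lies at chr13:55005985-55021385 on the minus strand. Its level was 5.59 and 5.37 FPKM in the control and 19.5 and 22.8 FPKM in the 7KC libraries. Both 7KC libraries were far above both controls, and the control libraries almost coincided. The mean went from 5.48 ± 0.159 (SD, n = 2) to 21.1 ± 2.33 FPKM (SD, n = 2), a ratio of 3.86 and a log2 difference of 1.85. Leaving out any single library kept this difference between 1.74 and 1.96.

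Hk2, the insulin- and hypoxia-responsive isoform of muscle and fat that activated immune cells also express, lies at chr6:82725025-82774454 on the minus strand. It measured 0.918 and 0.691 FPKM in the control and 2.84 and 3.19 FPKM in the 7KC libraries. The groups did not overlap, but the gene was among the lowest tested, with its control mean at percentile 7.20 of tested genes. The mean was 0.805 ± 0.160 in the control and 3.02 ± 0.245 FPKM with 7KC (SD, n = 2 each), a ratio of 3.75 and a log2 difference of 1.43. These values stood for about 84, 51, 207 and 234 reads, in the same order of libraries, so that counting error amounts to 14.0% of the lowest value. With a pseudocount of 0.1 FPKM in place of 0.5 the difference was 1.79, and with 1 FPKM it was 1.16.

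Hk1, the isoform that most cell types express and that docks on mitochondria, lies at chr10:62268855-62379908 on the minus strand. Its level was 2.44 and 1.89 FPKM in the control and 3.99 and 4.96 FPKM in the 7KC libraries. The groups were apart, with a smaller gap than for the other hexokinases. The mean was 2.17 ± 0.389 against 4.47 ± 0.688 FPKM (SD, n = 2 each), a ratio of 2.06 and a log2 difference of 0.90.

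Since FPKM is per length, the genes of the high-affinity isoforms could be added within a library. Hk1, Hk2 and Hk3 together stood at 8.96 and 7.96 FPKM in the control and at 26.3 and 30.9 FPKM in the 7KC libraries, without overlap. Hk3 was the most abundant of them in every library. With Hkdc1, a further hexokinase gene too low to be tested, added to the sum, Hk3 made up 62.1% and 66.9% in the control and 73.9% and 73.4% in the 7KC libraries. The share of Hk1 was 27.1% and 23.6% in the control and 15.1% and 16.0% in the 7KC libraries, the opposite order to its level. The share of Hk2 hardly differed, at 10.2% and 8.62% against 10.8% and 10.3%, and Hkdc1 made up at most 0.822%.

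**Figure D2:**
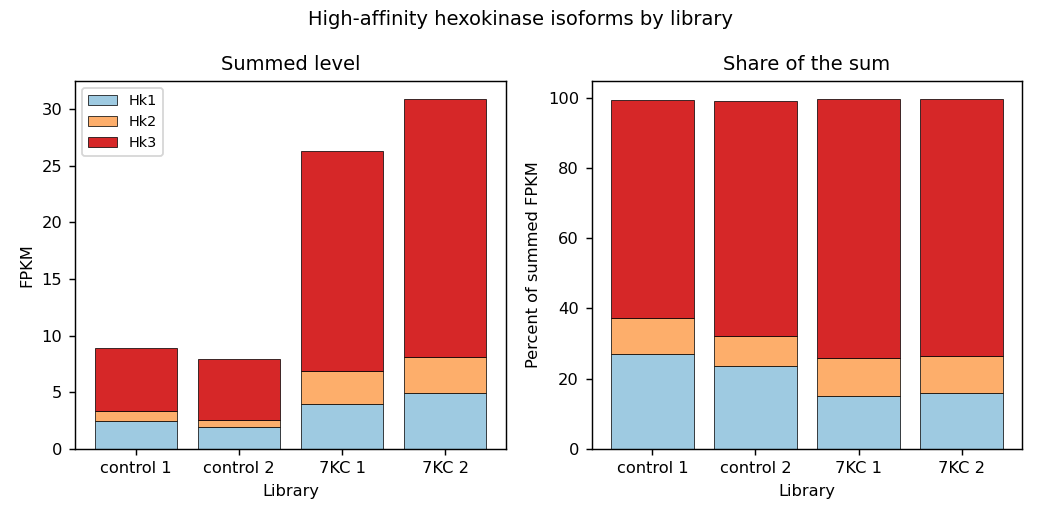
Hk1, Hk2 and Hk3 in each library as stacked bars, on the left in FPKM and on the right as a percentage of the summed FPKM of Hk1, Hk2, Hk3 and Hkdc1; Hkdc1, at most 0.822%, is not drawn. The bars reach 26.3 and 30.9 FPKM in the 7KC libraries and 8.96 and 7.96 FPKM in the control libraries, and Hk3 fills the largest part of each.

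Pklr encodes the liver and red-cell pyruvate kinase of the last step of glycolysis, whose gene answers to carbohydrate in hepatocytes, and lies at chr3:89136142-89146784 on the plus strand. It measured 137 and 165 FPKM in the control and 123 and 68.3 FPKM in the 7KC libraries. Both 7KC libraries were below both controls, but 7KC replicate 1 was close to control replicate 1 and 7KC replicate 2 was far lower. The mean was 151 ± 19.8 in the control and 95.6 ± 38.7 FPKM with 7KC (SD, n = 2 each), which is 1.58-fold lower with a log2 difference of -0.71. The size rested on 7KC replicate 2, since the difference was -0.29 without it and -1.13 without 7KC replicate 1.

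Pfkfb3 encodes the inducible enzyme that makes fructose 2,6-bisphosphate, the activator of phosphofructokinase, and lies at chr2:11471433-11554077 on the minus strand. Its level was 7.92 and 16.6 FPKM in the control and 10.7 and 10.4 FPKM in the 7KC libraries. The control libraries lay on either side of the 7KC libraries, and the groups overlapped. The means were 12.3 ± 6.14 and 10.6 ± 0.185 FPKM (SD, n = 2 each), and the log2 difference of -0.12 went from -0.63 to 0.39 depending on which library was left out. The hepatocyte isoform Pfkfb1 had 27.2 and 41.9 FPKM in the control and 20.8 and 17.4 FPKM in the 7KC libraries, a log2 difference of -0.81 ± 0.23 that missed the threshold (limma adjusted p = 0.176).

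Slc2a2 lies at chr3:28697903-28731359 on the plus strand. The GLUT2 gene measured 112 and 128 FPKM in the control and 90.4 and 83.0 FPKM in the 7KC libraries. The libraries of each group lay close together and the groups did not overlap. The mean was 119.5 ± 11.3 against 86.7 ± 5.23 FPKM (SD, n = 2 each), 1.38-fold lower with a log2 difference of -0.46. Scaling every library to the same sum brought the difference to -0.25, on a scale where the median of all genes was 0.16.

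G6pc had the largest difference among the 5 hepatocyte genes and lies at chr11:101367561-101377903 on the plus strand. It measured 348 and 309.8 FPKM in the control and 128 and 197 FPKM in the 7KC libraries. Both 7KC libraries were well below both controls. The mean was 329 ± 27.3 in the control and 163 ± 48.3 FPKM with 7KC (SD, n = 2 each), 2.02-fold lower with a log2 difference of -1.05 that stayed between -1.35 and -0.74 when any single library was left out. Its ubiquitous relative G6pc3 was at 4.40 and 4.16 FPKM in the control and at 5.12 and 4.92 FPKM in the 7KC libraries (limma log2 difference 0.21 ± 0.12, adjusted p = 0.421). The transporter that brings glucose 6-phosphate to glucose 6-phosphatase, Slc37a4, was at 147 and 183 FPKM in the control and at 109 and 97.9 FPKM in the 7KC libraries, a log2 difference of -0.67 ± 0.15 that missed the threshold (adjusted p = 0.121).

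Pck1, for cytosolic phosphoenolpyruvate carboxykinase, the entry step of gluconeogenesis, lies at chr2:173153048-173159273 on the plus strand. It measured 2384 and 1166 FPKM in the control and 1635 and 1328 FPKM in the 7KC libraries. The control libraries again lay on either side of the 7KC libraries. The means were 1775 ± 861 and 1481 ± 217 FPKM (SD, n = 2 each), and the log2 difference of -0.18 went from -0.69 to 0.34 depending on the library left out.

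The control libraries differed in the same sense for other genes with a place along the liver lobule, which were picked after their values were seen. Control replicate 1, high in Pck1, was also the higher in the periportal genes Cyp2f2 (553 against 228 FPKM) and Sds (592 against 252 FPKM). Control replicate 2, high in Pfkfb3, was the higher in the pericentral gene Cyp2e1 (6822 against 3962 FPKM). The part of this difference in the overlap of Pck1 and Pfkfb3 was not tested.

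Fbp1, for liver fructose 1,6-bisphosphatase, lies at chr13:62864753-62888282 on the minus strand. Its level was 902 and 787 FPKM in the control and 820.0 and 574 FPKM in the 7KC libraries. 7KC replicate 1 lay between the controls and 7KC replicate 2 below them. The means were 845 ± 81.2 and 697 ± 174 FPKM (SD, n = 2 each), with a log2 difference of -0.30 that was -0.55 to -0.04 when single libraries were left out.

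Another isoform of the same step was then set against the isoform assigned to hepatocytes within each library, which removes the scale of the library. The other isoform is not always foreign to hepatocytes, since Pck2 was also in the periportal marker list and G6pc3 is ubiquitous. Of 7 such pairs with values above 0 in every library, the ratio was higher in both 7KC libraries in 6 and overlapped in 1. The same share over all gene pairs was not computed. Among single tested genes, 25.1% lay above and 27.4% below without overlap, so the count is a description only. The pairs are not independent of each other or of the choice of the genes, since 2 share Slc2a2 and 6 hold at least one of the 9 genes. A further pair, Fbp2 to Fbp1, has no ratio because muscle-type Fbp2 was listed at 0 in 3 libraries.

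Pyruvate kinase showed the widest shift of the 7 pairs on the log2 scale. Pkm was at 22.6% and 12.3% of Pklr in the control and at 51.8% and 115% in the 7KC libraries, and the high value is the library with the low Pklr.

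Among glucose transporters, Slc2a1 (GLUT1) was at 8.90% and 3.84% of Slc2a2 in the control and at 13.7% and 14.7% in the 7KC libraries. Slc2a3 (GLUT3) stayed under 1% of Slc2a2 in every library, at 0.305% and 0.195% in the control and 0.321% and 0.994% in the 7KC libraries. Slc2a3 itself overlapped, at 0.340 and 0.249 against 0.290 and 0.825 FPKM, and stood on about 13 to 43 reads. These transporters bind glucose more tightly than GLUT2 does.

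Pfkfb3 was at 29.2% and 39.6% of Pfkfb1 in the control and at 51.3% and 60.0% in the 7KC libraries, although Pfkfb3 itself overlapped. Pfkp, the platelet-type phosphofructokinase, was at 18.9% and 13.1% of liver-type Pfkl in the control and at 34.2% and 34.1% in the 7KC libraries. G6pc3 was at 1.26% and 1.34% of G6pc in the control and at 3.99% and 2.50% in the 7KC libraries. The pair that overlapped was mitochondrial Pck2 to Pck1, at 0.0785% and 0.122% in the control and 0.113% and 0.194% in the 7KC libraries.

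**Figure D3:**
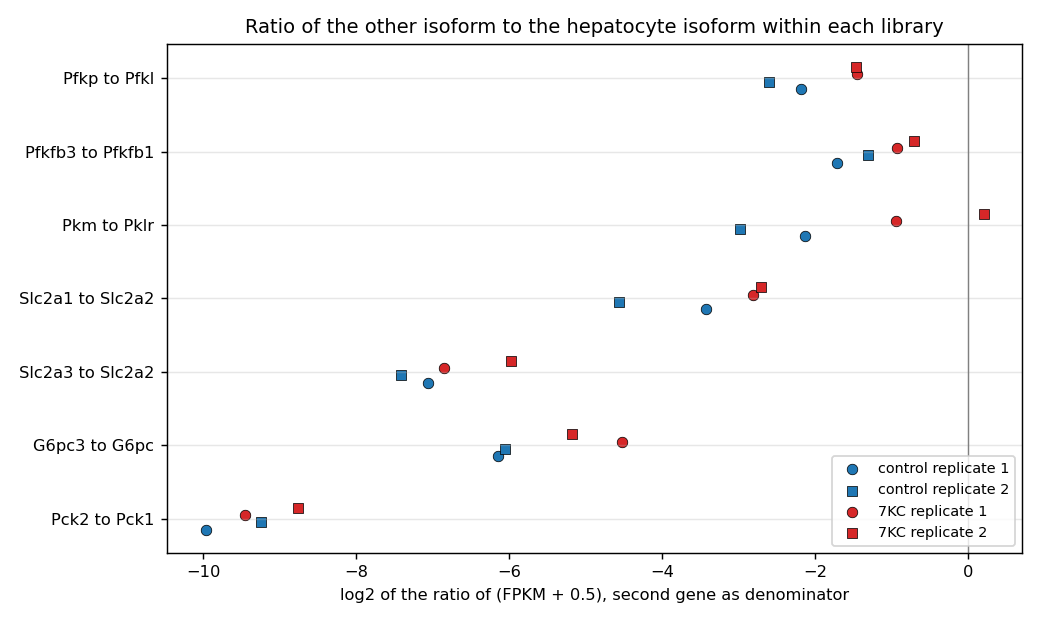
Log2 ratio of the other isoform to the hepatocyte isoform, computed as (FPKM + 0.5) of each, in the control (blue) and 7KC (red) libraries; circles are replicate 1, squares replicate 2, and the vertical line marks equal levels. In 6 of the 7 pairs with a ratio both 7KC libraries lie to the right of both control libraries, and only Pkm to Pklr, in 1 library, crosses the line.

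The partners in these pairs, and Aldoa, an aldolase of most tissues, were not among the 9 genes. They were read from the fit over all genes, except Slc2a3, which was too low to be tested. Pkm measured 30.9 and 20.3 FPKM in the control and 63.7 and 78.2 FPKM in the 7KC libraries, a log2 difference of 1.48 ± 0.23 (SE; limma adjusted p = 0.0619). Pfkp measured 2.50 and 1.62 FPKM against 5.08 and 5.52 FPKM (1.20 ± 0.20, adjusted p = 0.0704). Aldoa measured 115 and 87.8 FPKM against 162 and 176 FPKM (0.75 ± 0.17, adjusted p = 0.112). Their libraries did not overlap, but none passed the threshold.

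Slc2a1 was at 9.92 and 4.90 FPKM against 12.3 and 12.2 FPKM (0.77 ± 0.31, adjusted p = 0.288). Liver-type Pfkl was at 13.2 and 12.3 FPKM against 14.9 and 16.2 FPKM (0.27 ± 0.11, adjusted p = 0.304), and muscle-type Pfkm at 5.52 and 6.04 FPKM against 4.70 and 4.53 FPKM (-0.29 ± 0.12, adjusted p = 0.297). Mitochondrial Pck2 overlapped at 1.87 and 1.42 FPKM against 1.84 and 2.57 FPKM (0.33 ± 0.21, adjusted p = 0.460).

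The other genes of glucose metabolism were read as 9 lists that hold none of the 9 genes. Of 143 genes, 126 were tested, and limma called 0 higher and 0 lower at an adjusted p under 0.05, beside 0.480% and 0.0244% of all genes. At an unadjusted p under 0.05 there were 12 higher (9.52%, beside 12.0% of all tested genes) and 26 lower (20.6%, beside 5.81%). Both 7KC libraries lay above both controls for 22 genes (17.5%) and below for 51 (40.5%), and the groups overlapped for 53, while over all tested genes 25.1% were above and 27.4% below. The median log2 difference was -0.14. The split depended on the scale of the libraries: scaled to the same sum, 44 genes were above and 28 below, and over all genes 46.5% were above and 7.86% below.

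Most glycolysis enzymes overlapped, 13 of 19 tested, with 4 above, 2 below and a median log2 difference of 0.02. Pkm, Pfkp and Aldoa had the smallest p-values of this list. The enzymes of gluconeogenesis and glucose release lay to the lower side, with 2 of 16 above, 9 below and a median of -0.31. Besides Slc37a4, the smallest p-values there belonged to Slc37a1, a sugar phosphate exchanger of the endoplasmic reticulum, at 2.17 and 2.67 FPKM against 4.32 and 3.68 FPKM (0.62 ± 0.16, adjusted p = 0.147), and to the glycerol 3-phosphate dehydrogenase gene Gpd1, at 88.9 and 82.6 FPKM against 65.1 and 62.0 FPKM (-0.43 ± 0.11, adjusted p = 0.147).

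Of the 4 enzymes of fructose 2,6-bisphosphate, 1 was above and 2 were below (median -0.16). Pfkfb2 was at 7.39 and 6.13 FPKM in the control and at 4.60 and 5.27 FPKM in the 7KC libraries (-0.41 ± 0.15, adjusted p = 0.244). Pfkfb4 was low, at 0.626 and 0.251 FPKM against 0.759 and 1.60 FPKM (0.82 ± 0.34, adjusted p = 0.298).

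Among the transporters of glucose and lactate, 3 of 10 were above and 4 below (median -0.00). Slc2a6, a sugar transporter found in the lysosomes of macrophages, had the smallest p of all pathway genes, at 2.05 and 1.16 FPKM in the control and 6.48 and 6.22 FPKM in the 7KC libraries (1.74 ± 0.23, adjusted p = 0.0523). Slc16a3, the lactate exporter MCT4 of glycolytic cells, was at 1.79 and 0.661 FPKM against 5.30 and 5.49 FPKM (1.86 ± 0.33, adjusted p = 0.0759). Slc2a8 was at 7.90 and 8.61 FPKM against 6.24 and 6.23 FPKM (-0.38 ± 0.12, adjusted p = 0.198).

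In glycogen metabolism 4 of 21 genes were above and 9 below (median -0.16). Glycogenin (Gyg), the primer of glycogen, was at 6.11 and 5.34 FPKM against 9.37 and 11.5 FPKM (0.81 ± 0.15, adjusted p = 0.0828), and the non-hepatic glycogen synthase Gys1 at 1.07 and 0.746 FPKM against 1.94 and 2.22 FPKM (0.88 ± 0.19, adjusted p = 0.109). Ppp1r3c, a glycogen-targeting subunit of protein phosphatase, was at 10.4 and 27.5 FPKM against 4.65 and 6.40 FPKM (-1.55 ± 0.45, adjusted p = 0.182).

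Fructose and other sugar entry had 2 of 11 above and 6 below (median -0.22). The fructose-handling genes Khk and Tkfc were at 639 and 548 against 475 and 339.8 FPKM (-0.56 ± 0.21, adjusted p = 0.260) and at 255 and 364 against 214 and 160.2 FPKM (-0.72 ± 0.23, adjusted p = 0.218). Galt, of galactose use, was at 18.9 and 18.6 against 15.3 and 13.6 FPKM (-0.37 ± 0.11, adjusted p = 0.201). In the pentose phosphate pathway 3 of 8 were above and 1 below (median -0.01). Its NADPH-making enzymes G6pdx and Pgd were at 5.18 and 3.98 against 8.05 and 10.4 FPKM (0.94 ± 0.19, adjusted p = 0.0966) and at 24.5 and 22.2 against 37.7 and 35.0 FPKM (0.63 ± 0.12, adjusted p = 0.0820), and Pgls, the lactonase between them, at 68.9 and 59.8 against 54.3 and 57.2 FPKM (-0.20 ± 0.12, adjusted p = 0.436).

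Genes of pyruvate entry to mitochondria had 1 of 12 above and 8 below (median -0.22), with Pdhb, a subunit of pyruvate dehydrogenase, at 98.6 and 131 against 76.5 and 56.7 FPKM (-0.78 ± 0.21, adjusted p = 0.158). The mitochondrial pyruvate carrier gene Mpc2 was at 222 and 225 against 184 and 159.6 FPKM (-0.38 ± 0.13, adjusted p = 0.228), and Dld at 51.8 and 49.1 against 42.5 and 39.4 FPKM (-0.30 ± 0.11, adjusted p = 0.254). Regulators of hepatic glucose genes had 2 of 26 above and 10 below (median -0.24). Gckr, for a hepatocyte regulatory protein, was at 84.3 and 90.3 FPKM against 64.6 and 58.3 FPKM (-0.50 ± 0.12, adjusted p = 0.122). The next smallest p-values belonged to Irs2, an adaptor of the insulin receptor, at 8.38 and 6.73 against 4.59 and 4.83 FPKM (-0.62 ± 0.15, adjusted p = 0.127), and to Srebf1, the lipogenic regulator that insulin induces, at 74.1 and 101 against 54.5 and 52.5 FPKM (-0.69 ± 0.17, adjusted p = 0.137).

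**Figure D4:**
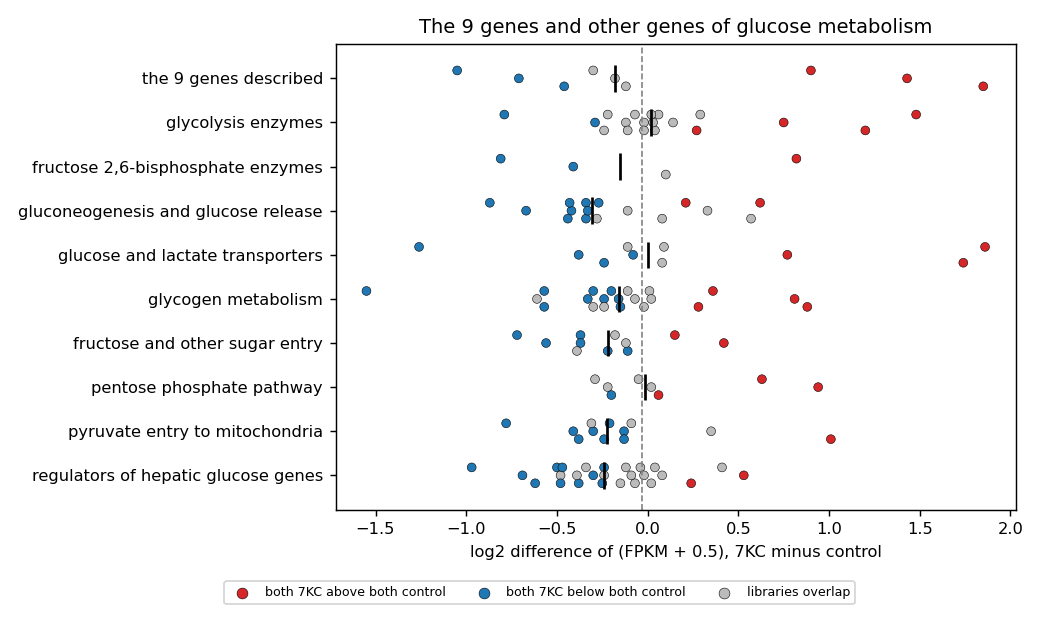
Log2 difference of (FPKM + 0.5), 7KC minus control, for the 9 genes (top row) and for the tested genes of 9 other lists of glucose metabolism, one point per gene. Red points have both 7KC libraries above both controls, blue points both below and gray points overlap; black bars are list medians and the dashed line is the median over all 12299 tested genes (-0.03).

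Which of these genes were called depended on the libraries and the settings. Without control replicate 1, limma with the remaining control library called Pfkp, Pkm, Slc2a1, Slc2a6 and Slc16a3 higher and Pfkfb1, Slc2a4 and Ppp1r3c lower, with the lone control library assumed to vary like the 7KC libraries. Slc2a4, the insulin-responsive GLUT4 gene, was at 1.22 and 4.30 FPKM in the control and at 0.611 and 0.799 FPKM in the 7KC libraries (-1.26 ± 0.49, adjusted p = 0.273 with all libraries). Control replicate 2, the library high in Slc2a4, was also the only one with the adipose genes Adipoq (0.353 FPKM), Plin1 (0.0873 FPKM) and Retn (0.391 FPKM) above 0 and had the highest Cfd (3.24 FPKM), and their part in the Slc2a4 value was not tested. Scaled to the same sum, limma called Pfkp, Aldoa, Pkm, Slc2a6, Slc16a3 and Pgd higher, and with a pseudocount of 1 FPKM it called Slc2a6 higher.

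Genes that respond to the signals acting on these enzymes were read as context. Among 15 tested carbohydrate-responsive genes, 0 were above and 8 below, with a median log2 difference of -0.48, and 1 fell: Thrsp, a lipogenic gene, went from 383 and 369 FPKM in the control to 154 and 129 FPKM in the 7KC libraries (-1.41 ± 0.14, limma adjusted p = 0.0336). Acly, for ATP citrate lyase, was at 53.6 and 46.2 against 29.5 and 25.3 FPKM but missed the threshold (-0.85 ± 0.14, adjusted p = 0.0639). Fasting-induced genes had 1 of 16 above and 6 below, with a median of 0.02 that became -0.42 without control replicate 2, and included Tat at 1523 and 825 against 684 and 804 FPKM. The glucocorticoid-responsive gene Fkbp5 was at 59.0 and 45.8 against 25.6 and 34.2 FPKM (-0.80 ± 0.20, adjusted p = 0.134). Of 17 hypoxia targets, 3 were above and 4 below (median -0.02), and Ldha, the most abundant, overlapped at 380.4 and 358 against 346 and 385 FPKM, as did Pgk1 at 198 and 162 against 181 and 159.7 FPKM.

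Markers of leukocytes lay higher in the 7KC libraries beside the hexokinase genes. All 8 pan-leukocyte markers lay above in both 7KC libraries (median log2 difference 1.32), and their summed level was 274 and 168 FPKM in the control and 543 and 617 FPKM in the 7KC libraries. Monocyte and macrophage markers summed to 818 and 581 against 1378 and 2121 FPKM, with 8 of 12 above and 1 below (median 1.07), led by Lyz2 at 538 and 321 against 995 and 1583 FPKM. T, NK and B cell markers summed to 24.4 and 15.4 against 54.0 and 44.8 FPKM, with 8 of 10 above (median 1.09). Neutrophil markers summed to 36.0 and 20.1 against 40.5 and 43.7 FPKM, with 2 of 5 above and 1 below (median 0.51). The smallest limma adjusted p among all cell type markers was 0.0503, for the T cell gene Cd3e, and so above the threshold.

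Proliferation markers lay above in 10 of 10 (median 1.36), with sums of 41.9 and 30.1 against 61.9 and 66.6 FPKM. Hepatocyte markers lay below in 10 of 13 (median -0.51), with sums of 89221 and 81200.2 against 67893 and 53981 FPKM that follow the abundant Alb and Apoa1. Periportal markers had 1 of 12 above and 4 below (median -0.23) and pericentral markers 1 of 12 above and 5 below (median -0.36). The periportal median turned to 0.29 without control replicate 1, and the pericentral median was -0.07 without control replicate 2. The endothelial sum was 141 and 171 against 127 and 182 FPKM, with all 10 overlapping, and the stellate and fibroblast sum 221 and 211 against 181 and 246 FPKM, with 1 of 10 above and 4 below. Cholangiocyte markers summed to 89.7 and 58.1 against 168 and 369 FPKM, with 3 of 5 above and 1 below. Nearly all of this sum was Spp1, at 85.6 and 54.1 FPKM in the control and 165 and 363 FPKM in the 7KC libraries. The sum therefore describes Spp1 and not the list. Of the other tested markers of the list, Sox9 and Muc1 were above, Krt19 was below and Epcam overlapped. Erythroid markers summed to 113 and 71.3 against 76.7 and 60.7 FPKM, and muscle and adipose markers to 1.29 and 5.13 against 1.93 and 1.52 FPKM, with Ckm, Acta1, Myh4 and Lep at 0. In whole liver, fewer cells of a type and less RNA per cell cannot be told apart, and the part of these cells in the hexokinase and isoform values was not tested.

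Set against the pan-leukocyte sum, the 3 hexokinase genes took different orders between the groups. Hk3 was at 2.04% and 3.20% of that sum in the control and at 3.59% and 3.69% in the 7KC libraries, and Hk2 at 0.335% and 0.413% against 0.524% and 0.517%. Both were also above relative to the monocyte and macrophage sum, Hk3 at 0.684% and 0.924% against 1.41% and 1.07% and Hk2 at 0.112% and 0.119% against 0.206% and 0.150%. Hk1 was the other way round, at 0.892% and 1.13% of the pan-leukocyte sum in the control and at 0.734% and 0.804% in the 7KC libraries. Pkm (11.3% and 12.1% against 11.7% and 12.7%) and Pfkp (0.913% and 0.965% against 0.936% and 0.894%) overlapped on this scale. Against the neutrophil sum, all of these genes lay above in both 7KC libraries, with Hk1 at 6.78% and 9.42% against 9.84% and 11.3%, Hk2 at 2.55% and 3.44% against 7.02% and 7.30%, and Hk3 at 15.5% and 26.7% against 48.1% and 52.1%. The same held for Pkm (85.6% and 101% against 157% and 179%) and Pfkp (6.94% and 8.04% against 12.5% and 12.6%). S100a8 and S100a9 made up most of the neutrophil sum, and 4 of its 9 listed markers were too low to be tested. Csf3r, of the same list, had a ratio of 7KC to control means of 2.45. This was above the 2.06 of Hk1 and below the ratios of Hk2, Hk3, Pkm and Pfkp. The largest part of the pan-leukocyte sum was Cd52 (151 and 79.7 against 314 and 314 FPKM), and that of the monocyte and macrophage sum was Lyz2. Among the latter markers, Itgam and Ly6c2 had ratios of 7KC to control means of 3.93 and 5.25, above the 3.86 of Hk3. The other markers of that list had lower ratios than Hk3. How the hexokinase genes lie against single markers was not tested.

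The hepatocyte genes were set against the hepatocyte marker sum in the same way, per 1000 FPKM of markers. G6pc was at 3.91 and 3.82 in the control and at 1.89 and 3.64 in the 7KC libraries, still without overlap, though 7KC replicate 2 was close to the controls. Pklr (1.53 and 2.03 against 1.81 and 1.26), Slc2a2 (1.25 and 1.57 against 1.33 and 1.54) and Pck1 (26.7 and 14.4 against 24.1 and 24.6) overlapped. Fbp1 lay above, at 10.1 and 9.70 in the control and 12.1 and 10.6 in the 7KC libraries. The order of Pklr and Slc2a2 between groups held in FPKM and not relative to this sum, of which Alb is the largest part. Their order relative to each single marker was not tested.

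**Figure D5:**
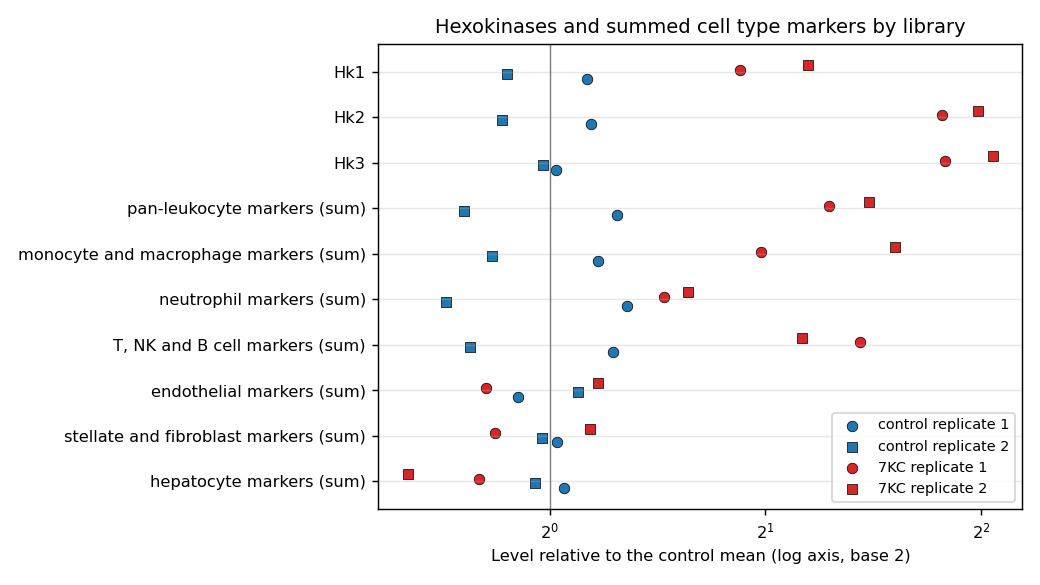
Level of the 3 hexokinase genes and summed FPKM of 7 marker lists, each divided by its own control mean (log axis, base 2), in the control (blue) and 7KC (red) libraries; circles are replicate 1 and squares replicate 2. The leukocyte sums and the hexokinase genes lie to the right in both 7KC libraries, the hepatocyte sum to the left, and the endothelial and stellate sums overlap.

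The genes whose 4 values most resembled those of Hk3 were named by the root mean square distance of centered log2 values over the 4 libraries, among 7172 genes averaging 5 FPKM or more. They were H2-DMa, which helps load peptide on MHC class II (distance 0.0757), at 19.6 and 17.4 FPKM in the control and 58.9 and 65.9 FPKM in the 7KC libraries, Fgl2 (0.110), at 6.66 and 5.13 against 19.4 and 23.5 FPKM, and Klra2, a receptor gene of the Ly49 family (0.138), at 3.94 and 4.16 against 14.5 and 13.8 FPKM. The nearest to Pklr were 1190005I06Rik (0.107), 1500017E21Rik (0.107) and the carboxylesterase gene Ces1e (0.113), the last at 25.9 and 33.0 FPKM in the control and 21.3 and 14.6 FPKM in the 7KC libraries. With 4 libraries, likeness is mostly the difference between the groups and its spread.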

How the data were processed

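RNA of 2 control and 2 7KC liver libraries was measured, with groups as in the labels. The authors made stranded libraries, sequenced 75-base single-end reads, mapped them to mm10 and deposited FPKM, 1 value per gene symbol and library. The submitters' processing notes name TopHat2 2.1.1, Bowtie2 2.2.8, SAMtools 0.1.18 and Cuffdiff 2.2.1, whereas the study's methods give other versions of the mapping tools and name Cufflinks for the FPKM, and which applies was not resolved. The annotation and the settings for reads shared between relatives are not given in the sources used here, so close isoforms may have exchanged reads. FPKM is relative to the whole library, so abundant genes shift all others.

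Depth was recovered from the FPKM steps of single-transcript genes in GENCODE M21 (GRCm38), where 72.5% to 76.8% of low values came out within 0.1 of a whole read. The gene coordinates are from the same annotation. At a transcript of 2 kb, 0.5 FPKM is about 12.4 reads in the shallowest library, and read-based errors cover counting only.

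Values were compared as log2(FPKM + 0.5), which makes differences of low genes look smaller. A limma 3.58.1 model (R 4.3.3, lmFit, eBayes with trend, group as the only term; 2 residual and 3.27 prior degrees of freedom) was fitted to the 12299 genes averaging 0.5 FPKM or more, with Benjamini-Hochberg adjustment over all of them, and the code was tested on simulated data. Whether libraries are from separate animals is not stated in the labels, so p-values measure only the spread between these samples. An exact permutation test of 1 gene has 3 splits and cannot go below a two-sided p of 0.333. The same replicate number in both groups was not used to pair libraries. The deviations of same-numbered libraries from their group means correlated at -0.141. With so few libraries, this value cannot settle whether they were processed in pairs.

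The 9 genes, the gene lists, the isoform pairs, the motifs and the alternatives were chosen with earlier results of these data known. Besides the 9 genes, named genes were both members of each isoform pair, Hkdc1, Gckr, Pfkm, Pfkfb2 and Pfkfb4, the 3 genes of smallest p in each pathway list, and, from context and cell type lists, some of the 2 most abundant and the 2 of smallest p. Of 304 symbols in the lists, 4 were not matched. Alternatives were other pseudocounts, filters, scalings (TPM, median ratio, quantile), an untrended prior, a replicate block and leaving out each library. Some genes of the lists are not reported here.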

Additional observations from a re-analysis of the deposited data

How the results depend on the processing

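The 3 hexokinase differences and those of Pklr, Slc2a2 and G6pc kept their direction under every alternative run. Without overlap, leaving out a library cannot reverse a direction. Of the values for the 9 genes, 108 stayed within the spread between replicates while 7 moved. This count does not measure stability, since many values could not move. Leaving out a library cannot shift a difference beyond that spread, and the filters, the untrended prior and the replicate block leave it unchanged. The moves were of Hk2, Hk3 and Slc2a2, with other pseudocounts, TPM or quantile scaling. With a filter at a mean of 5 FPKM, 1 of the 9 genes was above, since Hk1 and Hk2 are lower than that. Leaving out single libraries gave 3 to 4 above and 3 to 5 below, with 5 below without control replicate 2. Over all tested genes, 33.7% to 37.3% were then above and 37.5% to 41.9% below. With fewer libraries the groups overlap less easily, so these counts can only stay or rise. Over all genes, the counts of 59 higher and 3 lower became 111 higher with a pseudocount of 1 FPKM, 0 and 1 without a filter (1792 and 842 at an unadjusted p under 0.05), 398 and 7 under TPM, 94 higher under median-ratio scaling, and 39 and 1 without a trend. Leaving out single libraries gave 2 to 389 higher and 1 to 52 lower, the highest counts without control replicate 1. The replicate block gave 0 and 0 (1269 and 582 at an unadjusted p under 0.05), and the crossed replicate block, added after seeing the data, 551 and 37. Pathway genes called higher went from 0 to 1 with a pseudocount of 1 FPKM, 6 under TPM and 0 to 5 without single libraries, and those called lower to 0 to 3. The difference of Pgls, -0.20, went to 0.00 under TPM. Apart from the filter, the cause was not tested. With 2 libraries a group, no single gene can pass an exact test, and Hk2, at 51 to 234 reads, is the member that depth limits most.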
